A study of Danio rerio with 28 samples.

Results

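The comparison described here set 4 gut RNA-seq libraries of conventionally reared il22 knockout larvae (il22koCV) against 4 libraries of conventionally reared wild type larvae (WTCV), 8 of the 28 libraries in the series, chosen by their titles. For each library 10 to 15 dissected guts were pooled, from zebrafish at 7 days post-fertilization, so an error printed here is the spread between pools and not between larvae. Both groups lived with an ordinary microbiota. il22koCV larvae carried the il22-/- genotype, and WTCV larvae carried no mutation named in the labels. The kind of il22 allele, the background strain, the sex of the larvae and whether both groups came from the same parents are details that the sources used here do not give. Loss of il22 and other differences between the lines therefore cannot be told apart. The words knockout effect stand here only for the difference between knockout and wild type libraries. The rest of the series held the same genotypes reared germ-free (il22koGF and WTGF, 4 libraries each), co-housed knockout larvae, and an earlier experiment with 4 il22 knockout and 4 wild type libraries whose housing the labels do not state.

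Interleukin-22 is a cytokine of the interleukin-10 family. In mammals it is made mainly by lymphoid cells and acts on epithelial cells through a receptor built of IL22RA1 and IL10RB, which activates JAK kinases and the transcription factor STAT3. In the mammalian intestine this pathway is known for inducing antimicrobial proteins, mucins and repair of the epithelium. The study's title places the zebrafish cytokine in enteroendocrine cells and ties it to gut motility and the microbiota.

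Levels are given as CPM, counts per 1e+06 counts of a library after TMM scaling. CPM is not divided by gene length, so it compares libraries for 1 gene and not genes with each other. A log2 fold change is il22koCV over WTCV with an approximate standard error (SE). Adjusted p-values come from edgeR's quasi-likelihood test on the raw counts with Benjamini-Hochberg adjustment over all 11254 genes tested, and a gene is said to have risen, fallen or been called when this value is under 0.05. Where both groups of 4 are listed, the order is library 1 to 4.

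Libraries held 25155049 to 27059271 counts in il22koCV and 26434650 to 30891742 counts in WTCV, and the 10 most abundant genes took 14.33% to 17.58% of them. Transcripts of gut epithelium were present in every library: the microvillus gene vil1 stood at 1921 to 2149.8 CPM in il22koCV and 1403 to 1944 CPM in WTCV, and the intestinal cadherin cdh17 at 736 to 796 and 648 to 843 CPM. fabp2, the marker gene of enterocytes, was at 0.108 to 0.202 CPM in il22koCV and 0.265 to 0.718 CPM in WTCV. This was 3 to 5 and 7 to 21 counts, and the gene was called lower (log2 fold change −1.53 ± 0.41, adjusted p = 0.0067). With so few counts beside those of vil1 and cdh17, fabp2 does not describe the amount of enterocytes. Some libraries stood apart from their group, WTCV 1 and il22koCV 3 in transcripts of other organs. WTCV 1 summed to 1682 CPM over 41 skeletal muscle genes, against 244 to 306 CPM in il22koCV and a median of 256 CPM in WTCV. il22koCV 3 had 964 CPM over 41 liver genes, against a median of 480.4 CPM in il22koCV. WTCV 4 had the highest liver sum of WTCV, 1049.7 CPM against a median of 852 CPM. No organ sum of WTCV 4 was marked by the rule used below for flagged results. That library was marked for single genes instead, such as stat2 and isg15. Counts were therefore also taken without these 3 libraries, a choice made after the data were seen. A fit with the liver and pancreas level of each library as covariates is called the covariate fit here. These levels are means over the liver and exocrine pancreas lists themselves, so the covariate fit is no check of those lists. Where a list's count of rises or falls moved by more than 1.5 times without a library, without these 3 or in the covariate fit, the moved count stands in brackets beside it. In pooled guts, fewer cells of a type and less RNA per cell cannot be told apart.

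il22 itself was near the limit of detection. The il22koCV libraries held 5, 1, 9 and 4 counts of il22, and the WTCV libraries 4, 1, 18 and 17. This is 0.177 ± 0.119 CPM in il22koCV and 0.360 ± 0.325 CPM in WTCV (SD, n = 4 each). Their difference gave an exact permutation p of 0.4, two-sided, where 70 splits allow no p below 0.0286, and il22 fell under the filter on low counts. The level of il22 therefore did not check the genotype labels of these 8 libraries.

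The 2 groups differed widely. In il22koCV guts 1918 genes rose and 2152 fell, which is 17% and 19.1% of the genes tested and 36.2% together. Most changes were small: the median size among called genes was 0.571 on the log2 scale, 966 called genes (8.58% of those tested) were past 2-fold and 321 (2.85%) past 4-fold. The 2 sets of libraries did not overlap for 3523 genes (31.3%). The median over all tested genes was −0.023. TMM scaling centres most genes on no change, so this median cannot show whether a shift was shared by most genes. Without WTCV 4 the count was 4683, and without WTCV 1, WTCV 4 and il22koCV 3 it was 3955. On TPM values, log2(TPM + 1) in limma, it was 3289, split into 1813 higher and 1476 lower. Against these shares of all genes, the gene lists below are read as descriptions. Most list genes below were named for the smallest p among called members, a choice that favours groups without overlap. A lack of overlap in such genes is therefore a description and not further support.

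**Figure D1:**
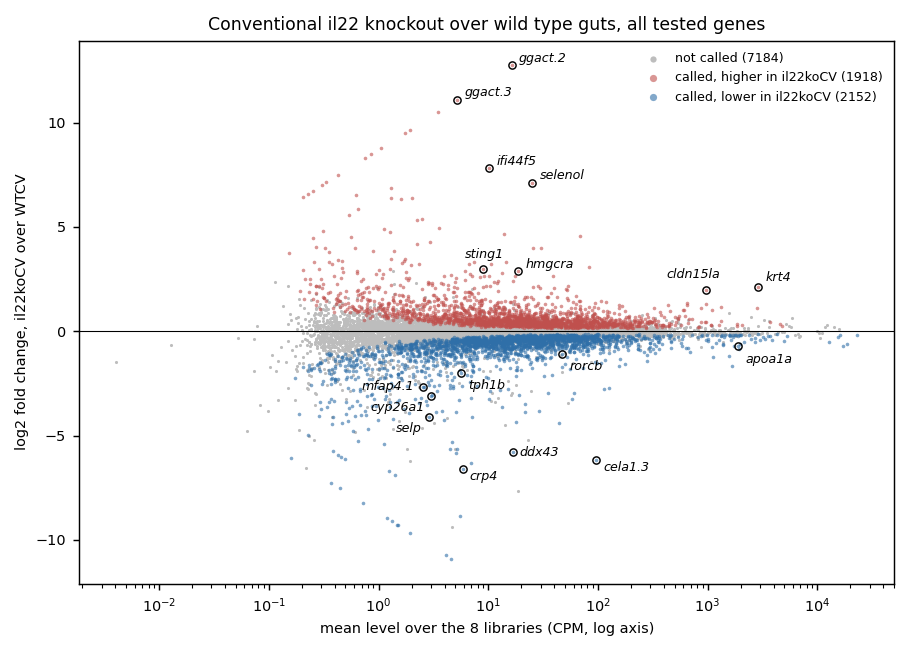
Change of every tested gene in il22koCV over WTCV guts (log2 fold change, vertical axis) against its mean level over the 8 libraries (CPM, log axis), with called genes in colour and some of the genes named in the text marked. Of the marked genes, ggact.2, ggact.3, ifi44f5 and selenol lie highest and crp4, cela1.3 and ddx43 lowest, while most of the 4070 called genes lie within 2-fold of no change.

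At the extremes a gene was nearly silent in one of the groups. ggact.2, a gene for gamma-glutamylamine cyclotransferase, which breaks down the amines left when cross-linked proteins are digested, had 32.3, 35.3, 32.3 and 31.0 CPM in il22koCV guts and no count in any WTCV library, at least 1256-fold higher against a floor of 3 counts over the whole group. Its neighbour copy ggact.3 had 11.7, 10.04, 12.4 and 7.75 CPM in il22koCV and likewise no count in WTCV (at least 402-fold), and ggact.1 had 56.8, 66.4, 62.3 and 44.5 CPM in il22koCV, against 3.12, 3.21, 3.82 and 4.197 CPM in WTCV. The 3 copies moved the same way, although counting could have divided reads among them. selenol, a selenoprotein gene of fishes, had 43.4, 53.6, 57.3 and 46.6 CPM in il22koCV, against 0.487, 0.239, 0.416 and 0.280 CPM in WTCV (log2 fold change 7.12 ± 0.21, adjusted p = 1.6e-14). ifi44f5, of the interferon-induced IFI44 family, had 18.2, 18.5, 24.1 and 21.0 CPM in il22koCV, against 0, 0.0342, 0 and 0.315 CPM in WTCV (adjusted p = 1.8e-10). A lack of overlap between the groups was part of the rule that chose these genes.

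Other large rises were spread over unlike functions. sting1, the adaptor that senses products of cytosolic DNA detection, had 14.5, 15.1, 15.4 and 18.03 CPM in il22koCV guts, against 2.53, 1.61, 1.36 and 2.48 CPM in WTCV guts (log2 fold change 2.98 ± 0.19, adjusted p = 6.1e-10). Of the trafficking GTPase genes, arf5 of the Golgi rose to 26.9 ± 1.52 CPM in il22koCV, against 1.07 ± 1.08 CPM in WTCV, and rab11bb of recycling endosomes to 19.3 ± 3.93 CPM, against 2.08 ± 0.480 CPM in WTCV (SD, n = 4 each; adjusted p = 7.4e-07 and 1.5e-10). med7, a Mediator subunit, rose by 4.27 ± 0.44, wbp2, a WW-domain binding protein, by 2.66 ± 0.09, and tpmt.2, a thiopurine methyltransferase, by 2.76 ± 0.16 on the log2 scale. Of enzymes of amino acid handling, ddo, D-aspartate oxidase, rose by 2.77 ± 0.28, pycr1a, which makes proline, by 2.69 ± 0.30, and uroc1, which breaks down histidine, by 2.65 ± 0.31 (adjusted p = 6.1e-07, 2e-06 and 5.4e-06). hmgcra, which controls the rate of cholesterol synthesis, completed the 15 largest rises.

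The largest falls included an acute phase protein gene, a pancreatic elastase and a selectin. crp4, of the C-reactive protein family that binds bacterial surfaces, had 0, 0.0770, 0.366 and 0 CPM in il22koCV guts, against 12.1, 8.95, 13.6 and 11.58 CPM in WTCV guts (adjusted p = 2.6e-06). cela1.3, an elastase gene, had 2.84, 3.93, 1.72 and 2.02 CPM in il22koCV and 223, 130.4, 124 and 285 CPM in WTCV (log2 fold change −6.18 ± 0.43, adjusted p = 1.5e-08). selp, P-selectin of activated endothelium and thrombocytes, had 0.180, 0.346, 0.183 and 0.524 CPM in il22koCV and 7.11, 3.45, 6.61 and 4.55 CPM in WTCV (adjusted p = 2.4e-08). The rule that chose these 3 genes required that the groups did not overlap. ddx43, an RNA helicase gene, had 0.648, 0.462, 0.842 and 0.363 CPM in il22koCV and 30.6, 40.9, 38.1 and 21.9 CPM in WTCV, and capn2l, a calpain protease gene, had 0.0360, 0, 0.0366 and 0 CPM in il22koCV and 21.2, 7.24, 6.84 and 8.81 CPM in WTCV (adjusted p = 4.7e-11 and 2.2e-08). apodb, an apolipoprotein D gene, atp1a1a.3, a sodium pump subunit, spice1, of the spindle and centrioles, tmem177, of mitochondria, rrm2, a subunit of ribonucleotide reductase, and tom1, of endosomes, had log2 fold changes of −4.34 ± 0.84, −4.24 ± 0.39, −4.09 ± 0.24, −3.86 ± 0.39, −3.82 ± 0.82 and −3.62 ± 0.32 in that order. Without the 3 libraries that stood apart the log2 fold change of cela1.3 was −5.43 and that of apodb −3.65. The remaining 4 of the 15, tnni2a.1, actn3b, ampd1 and mmp30, rested on WTCV 1: their levels there were 36.0, 34.01, 21.2 and 12.8 CPM, and without that library they were no longer called (adjusted p = 0.39, 0.25, 0.22 and 0.12). The call of tnni2a.1 was also lost without WTCV 2 or any 1 il22koCV library, that of actn3b without il22koCV 1 and that of mmp30 without il22koCV 2, 3 or 4. The first 3 are genes of fast skeletal muscle, whose summed level was high in WTCV 1.

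**Figure D2:**
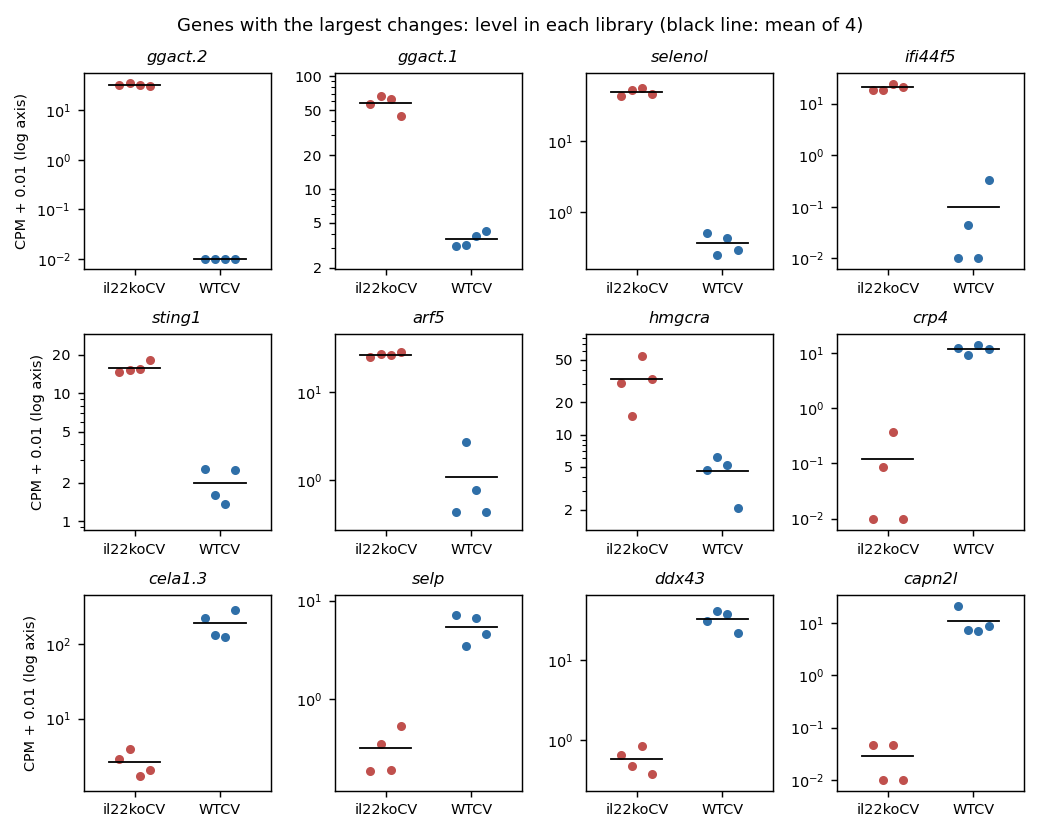
Levels per library (CPM + 0.01, log axis) of 12 of the genes with the largest changes, il22koCV libraries on the left of each panel and WTCV libraries on the right, with short lines at the group means. In every panel the 4 il22koCV points lie apart from the 4 WTCV points, as the rule that chose these genes required, and a library with no count lies at 0.01.

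The share of called genes near il22 was close to that over all genes, while the share without overlap between the groups was higher. The gene lies on chromosome 4 in the RefSeq gene table, which is of another genome build than the files and was used here only for gene order. Among the 25 tested genes on each side of il22, 20 of 50 were called (40%), among the nearest 50 on each side 38 of 100 (38%) and among the nearest 100 on each side 73 of 200 (36.5%), against 36.2% over all genes. The libraries of the groups did not overlap for 44%, 38% and 35% of these genes in that order, against 31.3% over all genes. Over the whole of chromosome 4 the share without overlap was 34.5%. It was also 34.5% on chromosome 11, and 39.3% on chromosome 22. The difference between the shares near il22 and over all genes was not tested. Near il22, plxnb2a.2, a plexin B2 gene, was the clearest case, with 4.61, 3.73, 3.70 and 4.03 CPM in il22koCV and 0.0324, 0, 0.113 and 0.0350 CPM in WTCV (adjusted p = 5.8e-10), and its copy plxnb2a.3 rose by 2.56 ± 0.33. Chromosome 22 had the highest share of called genes, 167 of 377 (44.3%), and chromosome 17 the lowest, 112 of 387 (28.9%). On chromosome 22, 30 genes (7.96%) were past 4-fold, against 2.85% over all genes. They included ifi44f5, cela1.3 and capn2l. tp53bp2b, rc3h1a and tmem186 of that chromosome had 3.08 to 3.99, 1.15 to 2.09 and 1.05 to 1.85 CPM in il22koCV and no count in any WTCV library.

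Genes of the IL-22 receptor and STAT3 pathway did not move as a group. Of 40 tested members 7 rose and 7 fell in il22koCV guts (35% called, near the share over all genes), with a median log2 fold change of 0.08. These counts moved with the libraries, to 4 rises without WTCV 3 or il22koCV 4 or in the covariate fit, 3 falls without the 3 libraries and 4 falls without WTCV 4 or il22koCV 1 or 2 or in the covariate fit. Of the receptor chains, il10rb, the chain shared by this cytokine family, had 186, 178, 171 and 190.0 CPM in il22koCV and 129, 149.6, 124 and 156 CPM in WTCV (log2 fold change 0.38 ± 0.07, adjusted p = 0.00063). All 4 il22koCV values lay above all 4 WTCV values, although the difference was under 1.5-fold. The kinase gene jak1 stood at 54.8 ± 0.405 CPM in il22koCV and 50.01 ± 2.59 CPM in WTCV (SD, n = 4 each; adjusted p = 0.051, and 0.049 without WTCV 2 and 0.016 without WTCV 4). stat3 had 59.0, 53.8, 54.8 and 45.1 CPM in il22koCV and 50.1, 44.9, 44.6 and 69.4 CPM in WTCV (log2 fold change 0.03 ± 0.15, adjusted p = 0.91). Its values overlapped, as did those of the feedback inhibitor gene socs3a, which had 141, 165, 121 and 157 CPM in il22koCV and 85.9, 60.4, 122 and 302 CPM in WTCV, with the highest value in WTCV 4 (log2 fold change 0.03 ± 0.50, adjusted p = 0.97). Its paralog socs3b had a difference of 0.28 ± 0.16 on that scale (adjusted p = 0.19). The kinase gene pim1, a target of STAT3 in mammals, rose to 241 ± 12.2 CPM in il22koCV, against 147 ± 22.9 CPM in WTCV (adjusted p = 5.5e-05), and ptpn11a, which encodes the phosphatase SHP2, fell by 0.36 ± 0.07 (adjusted p = 0.00055).

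The C-reactive protein genes were the clearest change among antimicrobial and acute phase genes, a class that IL-22 induces in mammals. The list as a whole was called at a lower share than the 36.2% over all genes. 2 of 26 tested members rose and 5 fell (26.9% called, median log2 fold change −0.47, and 0.15 without the 3 libraries; 1 rise without the 3 libraries). Beside crp4, crp7 had 0.0360, 0, 0 and 0.0403 CPM in il22koCV guts and 2.34, 1.06, 3.97 and 3.92 CPM in WTCV guts (adjusted p = 2.1e-05), and crp6 had no count in il22koCV, against 0.519, 0.444, 1.47 and 1.12 CPM in WTCV (at least 31.4-fold lower). The 3 genes are close copies on chromosome 24, so their separate values are uncertain. itln2, a lectin gene of the intelectin family, had 0.0360, 0, 0 and 0 CPM in il22koCV and 0.519, 0.0683, 0.265 and 2.17 CPM in WTCV, and its call was lost without the 3 libraries (adjusted p = 0.0042, and 0.073 without them). lgals2a, a galectin gene, fell by 0.94 ± 0.19 (adjusted p = 0.00068). nos2b, an inducible nitric oxide synthase, rose to 1.18 ± 0.166 CPM in il22koCV, against 0.406 ± 0.175 CPM in WTCV (SD, n = 4 each; adjusted p = 0.00092). Of 20 goblet cell and mucus genes 3 rose and 1 fell (5 rises without WTCV 1 or without the 3 libraries and 2 falls without WTCV 1 or 2). The share called was 20%, under the 36.2% over all genes. The mucin gene muc13b stood at 925 ± 12.9 CPM in il22koCV and 936 ± 109 CPM in WTCV (log2 fold change −0.02 ± 0.07, adjusted p = 0.87).

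Among genes of cell junctions rises outnumbered falls. Of 36 tested tight junction and adhesion genes 14 rose and 2 fell in il22koCV guts (44.4% called, median log2 fold change 0.23). There were 9 rises without WTCV 3 or in the covariate fit and 1 fall without WTCV 1 or 4 or any single il22koCV library or without the 3 libraries. cldn15la, a claudin of the intestinal epithelium, had 1646, 1566, 1671 and 1265 CPM in il22koCV, against 355, 419, 409.9 and 389 CPM in WTCV (log2 fold change 1.97 ± 0.18, adjusted p = 1.4e-07). Its il22koCV and WTCV values lay far apart. Further claudin genes followed with smaller steps: cldn11b rose by 1.51 ± 0.12, cldnk by 1.03 ± 0.19 and cldn3d by 0.34 ± 0.07 (adjusted p = 1.6e-08, 0.00028 and 0.0016). cldn12 went the other way, with 38.4, 40.2, 37.4 and 43.7 CPM in il22koCV and 53.3, 53.6, 56.6 and 48.8 CPM in WTCV (adjusted p = 0.00077). tjp2a, a scaffold of the junction plaque, had 109.7, 101, 110.1 and 110.1 CPM in il22koCV and 73.8, 70.9, 70.5 and 84.4 CPM in WTCV (adjusted p = 2.1e-05). krt4, a keratin gene, had 3752, 5008, 5021 and 5137 CPM in il22koCV and 1262, 994, 1037 and 1031 CPM in WTCV (log2 fold change 2.13 ± 0.11, adjusted p = 3.3e-11), the smallest p of the 30 skin epithelium and keratin genes, of which 3 rose and 4 fell (5 rises without WTCV 1 or without the 3 libraries and 2 falls without WTCV 1 or il22koCV 3 or 4 or without the 3 libraries or in the covariate fit). The share called in that list was 23.3%, under the 36.2% over all genes.

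Lysosome-rich enterocytes, the cells of the posterior gut of larvae that take up whole proteins and digest them inside the cell, gave the list with the highest share of called genes. Of 35 tested members 16 rose and 7 fell (65.7% called, median log2 fold change 0.20). The endocytic adaptor gene dab2 had 675, 874, 821 and 731 CPM in il22koCV guts and 439, 449, 484 and 493 CPM in WTCV guts (log2 fold change 0.73 ± 0.12, adjusted p = 0.00011). The lysosomal protease gene ctsz had 759, 866, 796 and 758 CPM in il22koCV and 379, 397, 408 and 391 CPM in WTCV, and the mannosidase gene man2b1 had 1207 ± 111 CPM in il22koCV and 554 ± 33.4 CPM in WTCV (SD, n = 4 each; adjusted p = 1.1e-05 and 3.2e-05). Neither gene's groups overlapped. Other lysosomal genes fell: the cathepsin L gene ctsla had 425, 488, 511 and 527 CPM in il22koCV and 953, 979.8, 877 and 599 CPM in WTCV, and glb1, a beta-galactosidase, and lamp1b, a lysosomal membrane glycoprotein, had log2 fold changes of −0.73 ± 0.12 and −0.76 ± 0.10 (adjusted p = 5.5e-05, 0.00012 and 6.3e-06). The list therefore changed within itself in both directions.

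Brush border enzymes and transporters were split as well, with 7 of 21 higher and 6 lower (61.9% called, median log2 fold change −0.06). The members that rose among those of smallest p were surface enzymes. mep1a.2, a meprin protease, had 621, 579.6, 569 and 616 CPM in il22koCV guts and 270.0, 357, 303 and 294 CPM in WTCV guts (adjusted p = 2.8e-07), xpnpep2, an aminopeptidase, rose by 0.68 ± 0.13 and alpi.2, an intestinal alkaline phosphatase, by 0.57 ± 0.11. Of the falls, those of smallest p were of carriers. slc34a2b, a phosphate carrier, had 179, 141, 129 and 169.9 CPM in il22koCV and 392, 521, 395 and 333 CPM in WTCV (log2 fold change −1.41 ± 0.14, adjusted p = 3.6e-07). slc6a19b, which takes up neutral amino acids, had a log2 fold change of −0.62 ± 0.10 and slc15a1b, the peptide carrier, of −0.51 ± 0.12 (adjusted p = 7.5e-05 and 0.0024). Of 51 ion, bicarbonate and zinc transporter genes 6 rose and 12 fell (7 falls without WTCV 3), among them slc30a10, a metal exporter, with 174, 168, 182 and 161 CPM in il22koCV and 51.7, 74.3, 56.2 and 79.99 CPM in WTCV, and aqp10a, a water channel, with 17.0, 16.8, 15.6 and 22.7 CPM in il22koCV and 37.7, 56.7, 47.2 and 35.2 CPM in WTCV (adjusted p = 1.1e-07 and 0.0002). The share called in that list was 35.3%, near the 36.2% over all genes.

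Lipoprotein genes fell more often than they rose. Of 35 tested genes of lipid absorption and lipoproteins 13 fell and 3 rose in il22koCV guts (45.7% called, median log2 fold change −0.14). apoa1a, the main protein of high-density lipoprotein, had 1418, 1395, 1391 and 1478 CPM in il22koCV and 1927, 2657, 2441 and 2414 CPM in WTCV (log2 fold change −0.73 ± 0.10, adjusted p = 1.7e-05), and the apolipoprotein E gene apoea had 1279, 1464, 1307 and 1388 CPM in il22koCV and 1958, 2781, 2649 and 2521 CPM in WTCV (adjusted p = 1.4e-05). The groups did not overlap for either gene. apoc1, apoc2 and dgat1b, which makes triglyceride, had log2 fold changes of −0.81 ± 0.13, −0.58 ± 0.10 and −0.67 ± 0.09 (adjusted p = 6.2e-05, 9.9e-05 and 1.7e-05). fabp1b.1, a fatty acid binding protein gene of the upper gut, was the exception of smallest p, with 1879, 1892, 1878 and 1631 CPM in il22koCV and 583, 932, 932 and 797 CPM in WTCV (adjusted p = 5.3e-06). Several of these genes are also made by liver, whose list had 2 higher and 5 lower of 35 (0 rises without the 3 libraries, 1 rise without WTCV 1, 2 or 3 or il22koCV 2 or 3, 5 rises in the covariate fit and 13 falls without il22koCV 3), and the liver sum was 444 to 964 CPM in il22koCV and 802 to 1049.7 CPM in WTCV. In the covariate fit 12 lipid genes fell and 3 rose. The liver sum itself averaged 592 CPM in il22koCV and 889 CPM in WTCV. Liver content and the difference between the lines therefore cannot be told apart by that fit.

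Cholesterol genes were called at a share (36.7%) near that over all genes (36.2%), and most did not pass the test. hmgcra had 30.1, 15.01, 54.2 and 33.0 CPM in il22koCV guts and 4.71, 6.15, 5.21 and 2.06 CPM in WTCV guts (log2 fold change 2.87 ± 0.50, adjusted p = 0.00029), with the highest value in il22koCV 3, and without the 3 libraries that stood apart the log2 fold change was 2.19. fdps, a later enzyme of the same route, had 11.8, 11.8, 23.0 and 11.09 CPM in il22koCV and 6.95, 7.21, 7.26 and 7.83 CPM in WTCV, again highest in il22koCV 3, and npc2.1, which carries cholesterol out of lysosomes, had 273, 330.2, 313 and 282 CPM in il22koCV and 185, 197, 205 and 183 CPM in WTCV (adjusted p = 0.00079 and 0.00025). Of 30 genes of cholesterol synthesis and uptake 8 rose and 3 fell (36.7% called; 1 fall in the covariate fit), and the median log2 fold change was 0.18, or −0.03 without the 3 libraries that stood apart. The il22koCV library with the highest hmgcra was also the one with the highest liver sum. In the covariate fit 12 members rose and 1 fell, and the log2 fold change of hmgcra was 3.22 (adjusted p = 0.00019). Whether liver content had a part in these changes was not tested.

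**Figure D3:**
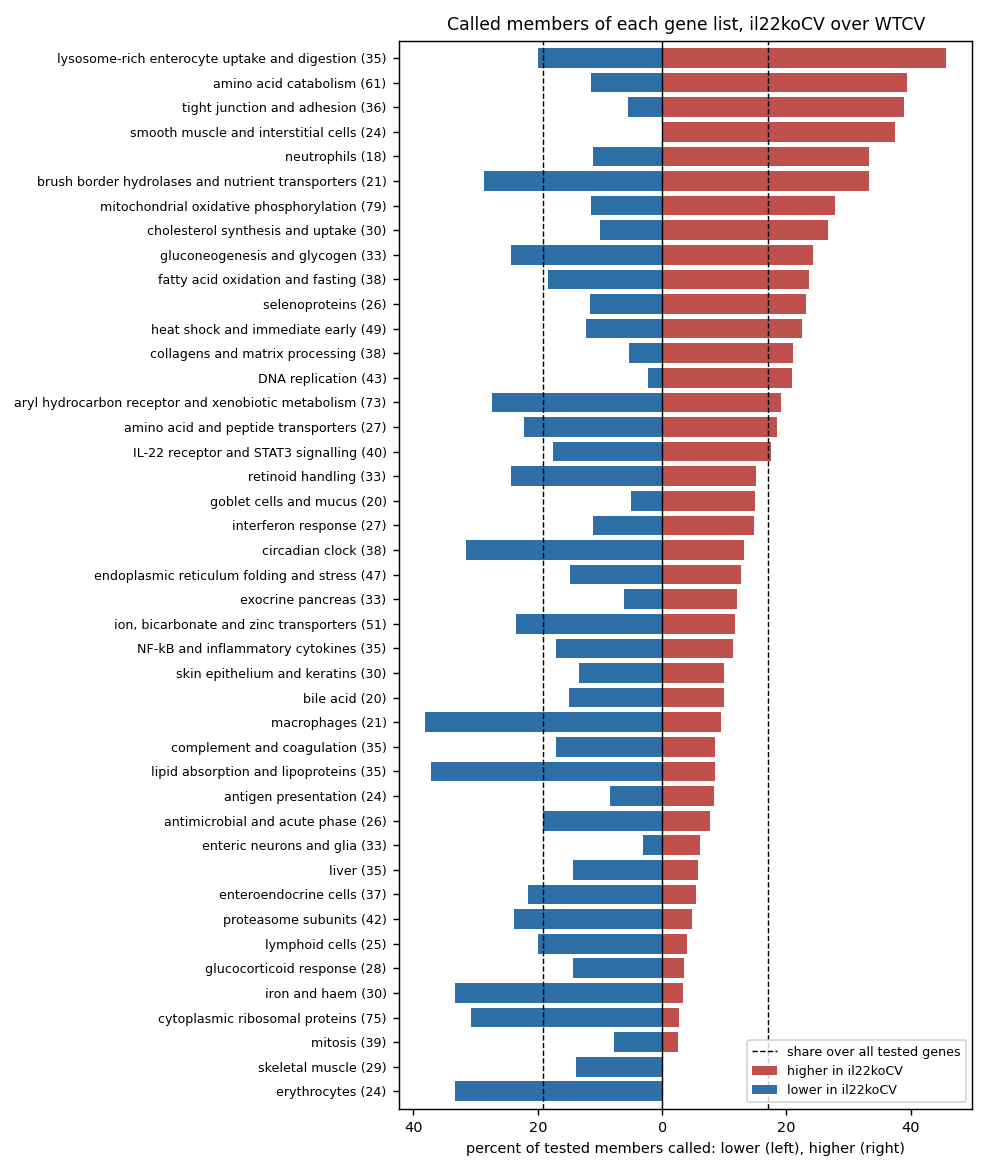
Share of tested members that rose (right) or fell (left) in il22koCV over WTCV guts for 43 gene lists, with the number tested in brackets and dashed lines at the shares over all genes, 17% and 19.1%. Lists of lysosome-rich enterocytes, amino acid catabolism and tight junctions reach farthest to the right, and those of macrophages and lipid absorption farthest to the left.

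Enteroendocrine cells are the hormone-making cells of the gut epithelium. Of 37 tested markers 8 fell and 2 rose in il22koCV guts (27% called, median log2 fold change −0.23; 1 rise without WTCV 1 or 4 or il22koCV 1, 2 or 4 or without the 3 libraries or in the covariate fit and 4 falls without il22koCV 3 or without the 3 libraries). This share was under the 36.2% called over all genes, of which 19.1% fell. The 2 markers that rose are not named here. Both genes of serotonin synthesis named here fell. tph1b, the first enzyme of that route outside the brain, had 2.02, 2.35, 2.12 and 2.62 CPM in il22koCV and 12.2, 9.26, 8.35 and 6.68 CPM in WTCV (log2 fold change −2.001 ± 0.43, adjusted p = 0.0014), and ddc, the next enzyme, had 74.2, 74.8, 96.4 and 77.4 CPM in il22koCV and 108, 172, 148 and 119.7 CPM in WTCV (adjusted p = 0.00015). calca, the calcitonin gene-related peptide gene, had 0.216, 0.308, 0.329 and 0.202 CPM in il22koCV and 2.82, 1.91, 1.78 and 0.420 CPM in WTCV (adjusted p = 0.00054). For all 3 genes every il22koCV library lay below every WTCV library. The hormone gene pyyb had 21.1, 21.1, 16.3 and 14.3 CPM in il22koCV and 24.1, 41.9, 31.9 and 34.1 CPM in WTCV (adjusted p = 0.052, and 0.041 without WTCV 1). gcga, a proglucagon gene that is also made in pancreatic islets, stood at 35.3 ± 3.37 CPM in il22koCV and 32.6 ± 10.5 CPM in WTCV (SD, n = 4 each; adjusted p = 0.67, and 0.013 for a rise without the 3 libraries). The summed level of the 52 markers in the table was 406 to 448 CPM in il22koCV and 459.8 to 578 CPM in WTCV.

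Of the tissues that move the gut, neurons gave few changes. Genes of smooth muscle and interstitial cells were called at a share (37.5%) near that over all genes (36.2%). Matrix genes were called at a lower share (26.3%). Of 33 tested genes of enteric neurons and glia 2 rose and 1 fell (9.09% called; 1 rise without WTCV 1 or 3 or il22koCV 1, 2 or 4 and 0 falls without the 3 libraries). phox2bb, which marks enteric neurons, stood at 13.5 ± 0.992 CPM in il22koCV guts and 13.6 ± 1.35 CPM in WTCV guts, and nos1, of inhibitory motor neurons, at 15.6 ± 2.86 and 14.1 ± 1.48 CPM (SD, n = 4 each; adjusted p = 0.96 and 0.74). ache, the enzyme that clears acetylcholine, had the smallest p among the called members, with 222, 182, 221 and 248 CPM in il22koCV and 91.4, 93.1, 96.8 and 81.2 CPM in WTCV (log2 fold change 1.27 ± 0.11, adjusted p = 7.9e-08). The 1 member that fell had a larger log2 fold change of −4.10 (adjusted p = 0.007). Of 24 genes of smooth muscle and interstitial cells 9 rose and 0 fell (1 fall without WTCV 4). myl9b, a regulatory myosin light chain, had 125, 101, 109.7 and 120.3 CPM in il22koCV and 62.1, 45.2, 52.8 and 45.8 CPM in WTCV (adjusted p = 3e-07), ppp1r12a, a subunit of myosin phosphatase, rose by 0.50 ± 0.08, and the mesenchymal transcription factor genes foxf1 and foxf2a by 0.58 ± 0.10 and 0.54 ± 0.11. The actin gene acta2 and the heavy chain gene myh11a, which define differentiated smooth muscle, stood at 1522 ± 157 and 497 ± 51.7 CPM in il22koCV and at 1738 ± 296 and 579 ± 141 CPM in WTCV (adjusted p = 0.21 and 0.24, and 0.03 for a fall of myh11a without WTCV 4). kita, of interstitial pacemaker cells, differed by 0.13 ± 0.14 on the log2 scale (adjusted p = 0.51, and 0.024 for a rise without the 3 libraries). Matrix genes added 8 rises and 2 falls of 38 (5 rises without WTCV 2 or il22koCV 1 or 4 or in the covariate fit, 0 falls without WTCV 1 or il22koCV 3 or 4 or without the 3 libraries and 1 fall without WTCV 2 or il22koCV 2), with timp2a, an inhibitor of matrix proteases, at 11.59, 11.08, 11.09 and 14.3 CPM in il22koCV and 4.93, 3.96, 4.69 and 4.06 CPM in WTCV (adjusted p = 6.9e-05).

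**Figure D4:**
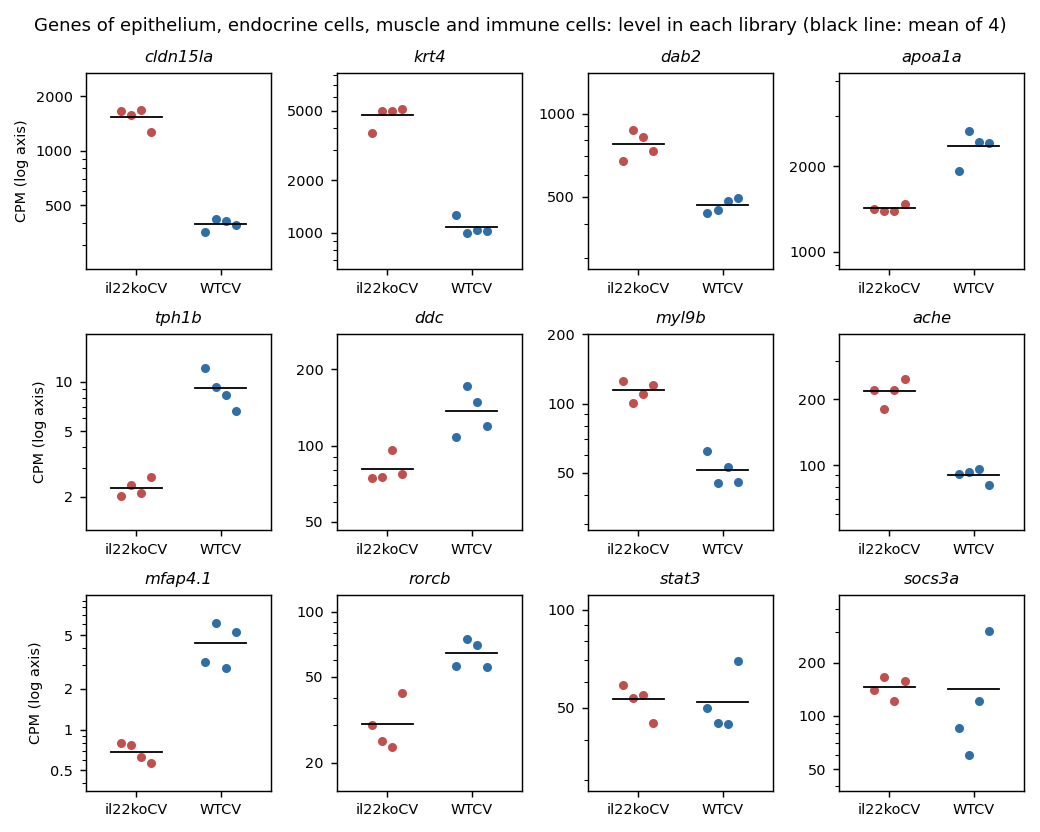
Levels per library (CPM, log axis) of 12 genes of the epithelium, enteroendocrine cells, muscle and immune cells, il22koCV libraries on the left of each panel and WTCV libraries on the right, with short lines at the group means. cldn15la, dab2, myl9b and ache are higher and apoa1a, tph1b, ddc and mfap4.1 lower in all 4 il22koCV libraries, while the stat3 and socs3a points overlap.

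Some macrophage markers fell, while the summed level of the list overlapped between the groups. Of 21 tested macrophage genes 8 fell and 2 rose in il22koCV guts (47.6% called, median log2 fold change −0.32; 1 rise without WTCV 1, 2 or 3 or il22koCV 1, 2 or 3 or in the covariate fit). Summed over all macrophage genes in the table, the level was 396 ± 41.6 CPM in il22koCV and 369.7 ± 54.1 CPM in WTCV (SD, n = 4 each). mfap4.1, a zebrafish macrophage marker, had 0.792, 0.770, 0.622 and 0.565 CPM in il22koCV and 3.18, 6.18, 2.83 and 5.28 CPM in WTCV (log2 fold change −2.66 ± 0.30, adjusted p = 1.7e-06). spi1b, the myeloid transcription factor gene, had 4.64, 3.35, 3.73 and 2.99 CPM in il22koCV and 6.10, 6.80, 5.97 and 7.83 CPM in WTCV, and grna, a progranulin gene, 15.04, 11.4, 11.5 and 10.13 CPM in il22koCV and 20.8, 25.4, 21.2 and 33.6 CPM in WTCV (adjusted p = 0.00069 and 2.8e-05). None of these overlapped. Of 18 neutrophil genes 6 rose and 2 fell (1 fall without WTCV 1 or il22koCV 2, 3 or 4 or without the 3 libraries or in the covariate fit), and their sum was 479 to 693 CPM in il22koCV and 219.6 to 469.7 CPM in WTCV. The share of neutrophil genes called was 44.4%. Of subunits of the NADPH oxidase, which other cells can also make, ncf1 had 73.1, 90.3, 91.1 and 80.1 CPM in il22koCV and 41.9, 45.2, 43.0 and 25.5 CPM in WTCV, and ncf4 rose by 1.21 ± 0.11 (adjusted p = 0.00019 and 8.8e-08). csf3r, the receptor gene for granulocyte colony-stimulating factor, fell by 1.19 ± 0.23 (adjusted p = 0.00053). Of 25 lymphoid genes 5 fell and 1 rose (0 rises without WTCV 1 or 4 or il22koCV 1 or 3 or without the 3 libraries and 3 falls without il22koCV 4 or in the covariate fit). Of these lymphoid genes 24% were called, against 36.2% over all genes. rorcb, the zebrafish gene for ROR gamma, which in mammals directs the lymphoid cells that make IL-22, had 29.9, 25.3, 23.8 and 42.0 CPM in il22koCV and 56.1, 74.9, 70.097 and 55.8 CPM in WTCV (log2 fold change −1.09 ± 0.16, adjusted p = 3e-05), and il2rga, the common cytokine receptor chain, fell by 1.27 ± 0.22 (adjusted p = 0.00019). rorcb is also a member of the clock gene list, so it is not a marker of lymphoid cells alone.

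Of 27 tested interferon response genes 4 rose and 3 fell (25.9% called), and there were 9 rises without WTCV 4 and 1 fall without WTCV 4 or il22koCV 1, 2 or 4 or in the covariate fit. The RNA sensor gene ifih1 had 18.2, 16.7, 18.6 and 15.9 CPM in il22koCV guts and 8.60, 5.94, 6.46 and 9.72 CPM in WTCV guts (adjusted p = 5.4e-05), and stat2, a transducer of interferon signals, 59.7, 64.4, 53.3 and 47.1 CPM in il22koCV and 18.1, 17.97, 19.3 and 45.96 CPM in WTCV (adjusted p = 0.0067). WTCV 4 lay close to the il22koCV libraries for stat2. isg15, an interferon-induced modifier, had 5.07, 2.77, 14.3 and 4.36 CPM in il22koCV and 15.6, 14.9, 21.0 and 65.8 CPM in WTCV, and its call was lost without WTCV 4 and without il22koCV 1, 2 or 4 (adjusted p = 0.027, and 0.13, 0.069, 0.078 and 0.073 without these). gbp4, a guanylate-binding protein gene, fell by 2.54 ± 0.34 (adjusted p = 1.3e-05). Of 35 NF-kB and inflammatory cytokine genes 4 rose and 6 fell (7 rises without WTCV 4 or without the 3 libraries, 2 falls without WTCV 4 or without the 3 libraries and 3 falls without il22koCV 2). The share called was 28.6%, and that list and the interferon list were both under the 36.2% over all genes. The kinase gene ikbke had 2.88, 3.58, 3.11 and 2.42 CPM in il22koCV and 0.422, 0.239, 0.340 and 0.210 CPM in WTCV (log2 fold change 3.29 ± 0.25, adjusted p = 1e-08). Its groups did not overlap. The chemokine genes moved apart from each other: cxcl12b rose by 2.08 ± 0.28, while cxcl20 had 4.25, 3.85, 2.85 and 3.11 CPM in il22koCV and 8.28, 7.96, 9.22 and 16.9 CPM in WTCV (adjusted p = 1.5e-05 and 0.00016).

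Among enzymes that break down amino acids rises outnumbered falls. Of 61 tested members 24 rose and 7 fell in il22koCV guts (50.8% called, median log2 fold change 0.23; 3 falls in the covariate fit and 4 falls without WTCV 4 or without the 3 libraries). agxt2, an aminotransferase of mitochondria, had 38.4, 39.8, 49.3 and 60.8 CPM in il22koCV and 10.2, 9.57, 10.01 and 11.58 CPM in WTCV (log2 fold change 2.19 ± 0.21, adjusted p = 3.4e-07). Of branched-chain amino acid breakdown, bcat2, of the first step, rose to 159 ± 12.4 CPM in il22koCV, against 81.1 ± 5.38 CPM in WTCV, and ivd, of a later step, to 165 ± 19.5 CPM in il22koCV, against 87.5 ± 5.50 CPM in WTCV (SD, n = 4 each; adjusted p = 9.3e-07 and 1.3e-06), and gcdhb, of lysine breakdown, rose by 0.75 ± 0.09. Sugar genes were divided, with 8 higher and 8 lower of 33 (48.5% called, against 36.2% over all genes, with 5 rises without WTCV 3 or il22koCV 4). gys2 and pygmb, for the synthesis and breakdown of glycogen, rose by 1.22 ± 0.25 and 1.28 ± 0.14, and pcxa, the entry enzyme of gluconeogenesis, by 0.71 ± 0.11. tpi1b, of glycolysis, fell by 0.88 ± 0.12. None of the genes named here had overlapping libraries, which their choice by smallest p favoured. Of 38 genes of fasting and fat burning 9 rose and 7 fell (42.1% called), but there were 3 falls without WTCV 2 and 4 falls without WTCV 3 or any single il22koCV library or in the covariate fit.

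Xenobiotic metabolism changed in both directions, with 14 of 73 higher and 20 lower (46.6% called). ahr1a, an aryl hydrocarbon receptor gene, had 16.3, 14.1, 13.6 and 18.03 CPM in il22koCV guts and 3.15, 4.65, 2.34 and 3.57 CPM in WTCV guts (log2 fold change 2.17 ± 0.21, adjusted p = 2.9e-07). cyp1a, a classical target of aryl hydrocarbon receptors as a family, had 594, 463, 517 and 878 CPM in il22koCV and 275, 392, 158 and 212 CPM in WTCV (log2 fold change 1.24 ± 0.28, adjusted p = 0.0024). A link between the changes of ahr1a and cyp1a was not tested. Every il22koCV library lay above every WTCV library for both genes. Among cytochrome P450 genes of the cyp2 family, whose close copies can share reads, cyp2aa2 had 2.41, 2.46, 2.49 and 2.62 CPM in il22koCV and 15.5, 16.4, 18.8 and 21.9 CPM in WTCV, cyp2p6 fell by 1.502 ± 0.15 and cyp2k8 rose by 1.86 ± 0.20 (adjusted p = 2.3e-10, 3.8e-07 and 7.2e-07). nr1h4, the bile acid receptor FXR, had 46.9, 63.0, 55.8 and 52.6 CPM in il22koCV and 21.0, 24.8, 23.5 and 19.2 CPM in WTCV (adjusted p = 2.8e-08), and slco1d1, an organic anion carrier, fell by 0.96 ± 0.13. Of 20 bile acid genes 2 rose and 3 fell (5 rises without WTCV 4). The share called was 25% for bile acid genes and 39.4% for retinoid handling, against 36.2% over all genes. In retinoid handling 5 of 33 rose and 8 fell (3 rises without the 3 libraries, 4 falls in the covariate fit and 5 falls without WTCV 2), and cyp26a1, which degrades retinoic acid, had 0.720, 0.385, 0.476 and 0.928 CPM in il22koCV and 4.51, 6.01, 8.58 and 2.73 CPM in WTCV (log2 fold change −3.11 ± 0.33, adjusted p = 7.4e-07).

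Iron and haem genes were called at a share (36.7%) near that over all genes (36.2%), and clock genes at 44.7%. In both lists falls outnumbered rises, although iron and haem genes had 6 rises and 11 falls without the 3 libraries. Of 30 iron and haem genes 10 fell and 1 rose (36.7% called, median log2 fold change −0.28; 2 rises in the covariate fit, 3 rises without WTCV 1 and 6 rises without WTCV 4 or without the 3 libraries). The haem oxygenase genes hmox1a and hmox2a, which break haem down, had 10.8, 6.89, 6.48 and 9.60 and 12.1, 15.5, 13.2 and 13.1 CPM in il22koCV guts, against 34.3, 26.6, 40.4 and 22.9 and 34.8, 33.9, 31.4 and 35.4 CPM in WTCV guts (adjusted p = 8.9e-06 and 5.8e-10). Ferritin genes were divided, with fthl27 at 466 ± 15.4 CPM in il22koCV and 919 ± 136 CPM in WTCV, and fth1a, the heavy chain, at 810.4 ± 61.2 CPM in il22koCV and 538 ± 35.8 CPM in WTCV (SD, n = 4 each; adjusted p = 3.4e-07 and 1.4e-05). Beside these, 8 of 24 erythrocyte genes fell and 0 rose (1 rise without any single WTCV library or without the 3 libraries). The share of erythrocyte genes called was 33.3%, under the 36.2% over all genes. Of 38 clock genes 12 fell and 5 rose (44.7% called; 8 rises without WTCV 1). nfil3-2, a rhythmic repressor, had 21.7, 19.5, 22.03 and 21.99 CPM in il22koCV and 49.6, 63.3, 49.99 and 42.1 CPM in WTCV, and the output factor hlfa had 39.6, 44.1, 49.7 and 49.3 CPM in il22koCV and 81.04, 76.3, 76.1 and 77.6 CPM in WTCV (adjusted p = 1.7e-07 and 3.8e-07). The cryptochrome gene cry3b, the repressor gene bhlhe41 and the activator gene bmal1b had log2 fold changes of −0.73 ± 0.09, −1.94 ± 0.30 and −0.80 ± 0.13. The sources used here do not give the hour at which each group was dissected.

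Growth, stress and housekeeping lists had counts in both directions. Of DNA replication genes 23.3% were called, of mitosis genes 10.3%, of heat shock and immediate early genes 34.7% and of endoplasmic reticulum genes 27.7%. For selenoprotein, cytoplasmic ribosomal protein and proteasome genes the shares were 34.6%, 33.3% and 28.6%. All these shares were under the 36.2% over all genes. Of 43 DNA replication genes 9 rose and 1 fell (5 rises without the 3 libraries and 2 falls without WTCV 1). rpa2, a single-strand binding protein, had 20.3, 17.0, 19.6 and 15.4 CPM in il22koCV guts and 8.31, 8.27, 9.37 and 9.37 CPM in WTCV guts (adjusted p = 0.00013), against the fall of rrm2 given above. Mitosis genes had 1 rise and 3 falls among 39 (0 rises without WTCV 1 or il22koCV 1, 3 or 4 or without the 3 libraries and 1 fall without il22koCV 4 or in the covariate fit). Of 49 heat shock and immediate early genes 11 rose and 6 fell (7 rises in the covariate fit and 2 falls in the covariate fit), with jun, a subunit of the factor AP-1, at 136, 139, 91.4 and 142 CPM in il22koCV and 68.6, 47.7, 60.2 and 52.0 CPM in WTCV (adjusted p = 1.2e-05). In the list of endoplasmic reticulum folding and stress, where 6 of 47 rose and 7 fell (11 falls without WTCV 4), xbp1 and ddit3, transcription factors of that response, rose by 0.48 ± 0.09 and 0.45 ± 0.08 (adjusted p = 0.00026 and 0.00033). Selenoprotein genes, of which 6 of 26 rose and 3 fell, included sephs1, of selenophosphate synthesis, with 6.19, 7.77, 7.94 and 8.80 CPM in il22koCV and 1.72, 1.71, 2.34 and 2.66 CPM in WTCV (adjusted p = 7e-08). Of 75 cytoplasmic ribosomal protein genes 23 fell and 2 rose (median log2 fold change −0.10; 6 falls without WTCV 2, 7 falls in the covariate fit, 10 falls without WTCV 4 or il22koCV 1 and 15 falls without the 3 libraries), and of 79 oxidative phosphorylation genes 22 rose and 9 fell (39.2% called; 11 rises and 12 falls without the 3 libraries and 5 falls without WTCV 2). sdhc, a subunit of succinate dehydrogenase, had 2.34, 4.35, 3.99 and 6.94 CPM in il22koCV and 0.227, 0.0683, 0.0378 and 0.0699 CPM in WTCV (adjusted p = 0.0002), and the catalytic proteasome gene psmb5 rose by 1.62 ± 0.13, in a list of 42 with 2 rises and 10 falls (1 rise without the 3 libraries, 4 rises without WTCV 4, 4 falls in the covariate fit, 5 falls without il22koCV 4 and 6 falls without WTCV 2).

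Genes of other organs in the dissection were measured beside these results. The exocrine pancreas, liver, complement and skeletal muscle lists had 18.2%, 20%, 25.7% and 13.8% of genes called, all under the 36.2% over all genes. Of 33 exocrine pancreas genes 4 rose and 2 fell (7 rises without the 3 libraries, 8 rises in the covariate fit, 1 fall without any single library but WTCV 2 or without the 3 libraries and 10 falls in the covariate fit), and prss1, a trypsinogen gene, stood at 17069, 14240.1, 8341 and 14747 CPM in il22koCV guts and 15053, 7370.4, 9603 and 12415 CPM in WTCV guts (adjusted p = 0.52). The lowest il22koCV value was that of il22koCV 3. serpina1, a serum protein of liver, had 0.324, 1.92, 26.8 and 0.0403 CPM in il22koCV and 10.3, 15.8, 11.03 and 30.3 CPM in WTCV (adjusted p = 0.55), so its levels overlapped only through il22koCV 3. fabp10a, a fatty acid binding protein gene of hepatocytes, went the other way, with 12.8, 40.6, 82.3 and 25.7 CPM in il22koCV and 15.5, 17.97, 11.15 and 29.2 CPM in WTCV (adjusted p = 0.043, and a call lost without WTCV 1, 2 or 3 or il22koCV 2 or 3, with 0.27 without il22koCV 3). Complement and coagulation genes, mostly made in liver, had 3 rises and 6 falls among 35 (5 rises in the covariate fit and 13 falls without il22koCV 3). The skeletal muscle list had 0 rises and 4 falls among 29 (1 rise without WTCV 4, 2 rises without WTCV 1, 3 rises without the 3 libraries, 0 falls without WTCV 1 or il22koCV 1 or without the 3 libraries, 1 fall without il22koCV 2, 3 or 4 or in the covariate fit and 7 falls without WTCV 3 or 4). actc1b, a muscle actin gene, had 8.13, 12.8, 2.49 and 12.5 CPM in il22koCV and 348, 19.6, 7.75 and 16.2 CPM in WTCV (adjusted p = 0.087). The marker genes ckma and mylpfa of muscle, alas2 of erythrocytes and mpeg1.1 of macrophages were listed at 0 in all 8 libraries, as was cdk1, a gene that every dividing cell uses, so a 0 in the table does not show that a cell type was absent. In the covariate fit 3206 genes were called, and with muscle as a covariate 4103. The liver and pancreas covariates are mean levels of those same lists. Counts of the liver and exocrine pancreas lists in the covariate fit therefore follow in part from its construction.

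The same genotypes reared germ-free address whether the changes needed the microbiota, and no library is shared between the 2 comparisons. In germ-free guts 3020 genes were called (26.8%). Genes called in both settings were 51.8% of the conventional and 69.9% of the germ-free calls. Of the genes nearly silent in 1 group, selenol had a log2 fold change of 7.13 ± 0.21, ddx43 of −5.31 ± 0.29 and cela1.3 of −7.31 ± 0.44 in germ-free guts. The difference between the conventional and the germ-free effect was itself called for 50 genes (0.444%), 13 positive (0.116%) and 37 negative (0.329%), and 1679 genes had an unadjusted p under 0.05. This count rested on single libraries. It was 989 without WTCV 4 and 7 without il22koCV 2. It was 17 without WTGF 2, 21 without WTCV 3 or il22koGF 4, 29 without WTCV 1, WTCV 2 or il22koGF 1, 31 without il22koCV 1, and 32 without WTGF 1 or il22koGF 3.

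cyp1a moved in opposite directions in the 2 settings. Its log2 fold change was 1.24 ± 0.28 in conventional guts and −1.204 ± 0.28 in germ-free guts, where it averaged 86.8 ± 20.1 CPM in il22koGF and 199.9 ± 23.1 CPM in WTGF (SD, n = 4 each), and the difference was called (adjusted p = 0.017). cyp2aa12, another P450 gene, did the same, with 0.54 ± 0.10 in conventional and −0.41 ± 0.10 in germ-free guts (adjusted p of the difference = 0.0067). crtac1a, for a secreted matrix protein, had 69.2, 94.8, 77.9 and 84.7 CPM in il22koCV and 137, 135, 118 and 130.5 CPM in WTCV, a log2 fold change of −0.67 ± 0.16, against 1.201 ± 0.17 in germ-free guts (adjusted p of the difference = 0.0026). A further set fell in conventional guts and less so, or not past the threshold, in germ-free guts. It held hmox1a at −0.17 ± 0.23, cyp26a1 at −0.68 ± 0.31, cry3b at 0.08 ± 0.09, nfil3-2 at −0.33 ± 0.12 and atp1a1a.3 at −1.81 ± 0.32 in germ-free guts (adjusted p of the difference = 0.025, 0.018, 0.013, 0.017 and 0.032). fthl28, a ferritin-like gene, and cyp8b1.1, of bile acid synthesis, were not called in conventional guts (log2 fold change −0.15 ± 0.39 and −0.22 ± 0.27) and rose in germ-free guts by 3.16 ± 0.41 and 1.65 ± 0.28. Without il22koCV 2 only 5 negative differences were called over all genes, so not all the negative differences named here kept their call. The differences for the serotonin genes tph1b and ddc were not called (adjusted p = 0.56 and 0.75), nor were those of stat3 and cldn15la (adjusted p = 0.69 and 0.32).

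**Figure D5:**
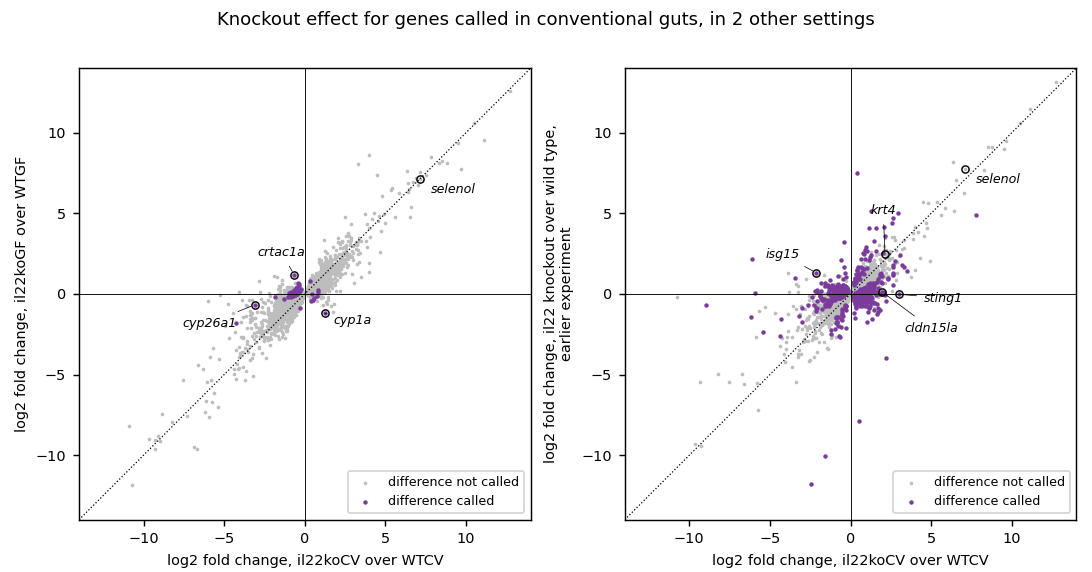
Log2 fold change of the knockout over wild type for genes called in conventional guts (horizontal axis), against the same quantity in germ-free guts (left) and in the earlier experiment (right). Most points lie in the quadrants of equal sign, 91.5% on the left and 83.2% on the right, the dotted line marks equal change, and genes whose difference was called are drawn in colour.

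The earlier experiment gave a second set of il22 knockout and wild type guts, counted in a separate table, with 3539 genes called (33.2%). 1863 genes were called in both, which is 49.6% of the calls here and 54.3% of the calls there among genes tested in both, and 105 of them had opposite directions. A total of 1276 genes were called in all 3 comparisons, 694 of them higher and 550 lower in each. The 2 effects differed for 1096 genes (9.92%), and for 1900 without WTCV 4. Rows of the earlier table were named by transcript, so a row there may hold only part of a gene. Of 42 tested genes of IL-22 receptor chains and STAT3 signalling, the difference was called for 9 with a positive and 0 with a negative sign. stat3 had a log2 fold change of 0.03 ± 0.15 here and −1.73 ± 0.15 in the earlier experiment, socs3b of 0.28 ± 0.16 and −2.01 ± 0.23, and jak1 of 0.13 ± 0.05 and −0.47 ± 0.07 (adjusted p of the difference = 0.00022, 0.00024 and 0.00074). For socs3a, with 0.03 ± 0.50 and −1.84 ± 0.54, the difference was not called (adjusted p = 0.13). Of 19 goblet cell and mucus genes it was called for 7 with a positive and 0 with a negative sign. muc13b had −0.02 ± 0.07 here and −1.21 ± 0.08 in the earlier experiment, and clca1, of goblet cell mucus, −0.36 ± 0.46 and −4.004 ± 0.18 (adjusted p of the difference = 1e-05 and 7.2e-06). Such counts were not particular to these lists. Positive and negative differences were called for 17 and 0 of 42 DNA replication genes and 14 and 1 of 49 heat shock and immediate early genes. They were called for 11 and 0 of 45 endoplasmic reticulum genes and 0 and 15 of 61 amino acid catabolism genes. Of genes that rose in these guts, cldn15la rose here by 1.97 ± 0.18 and had 0.12 ± 0.08 there, sting1 2.98 ± 0.19 and −0.02 ± 0.17, and psmb5 1.62 ± 0.13 and 0.12 ± 0.08 (adjusted p of the difference = 5.2e-07, 8.5e-06 and 1e-05). apoa1a fell here, and there its log2 fold change was 0.21 ± 0.11 (adjusted p of the difference = 0.0012). krt4 rose by 2.48 ± 0.09, fabp1b.1 by 1.31 ± 0.19, agxt2 by 2.75 ± 0.36 and ache by 1.68 ± 0.17 in the earlier experiment, and their differences were not called (adjusted p = 0.16, 0.81, 0.42 and 0.24).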

How the data were processed

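Guts dissected from 7-day-old zebrafish larvae were pooled, 10 to 15 per library, and made into stranded mRNA libraries read in pairs, per the labels' protocols. Reads were checked with FastQC 0.11.8 and aligned to danRer11, per the labels. The sources used here do not name an aligner, a counter, a strand setting or an annotation, so overlapping and antisense genes, and close copies such as the ggact, crp and cyp2 genes, are uncertain. The authors deposited raw counts per gene and the same table as TPM, which is scaled by gene length and library total, and experiment 1, the earlier experiment, as a separate count table. Nothing states that pools came from separate crosses, so p-values measure the spread between pools, which may be technical.

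From the counts, the 20 libraries of the 5 groups of experiment 2 were fitted together in edgeR 4.0.16 (R 4.3.3) with TMM scaling, filterByExpr by group and the robust quasi-likelihood F test. il22koCV was set against WTCV with Benjamini-Hochberg adjustment over the 11254 of 15419 genes tested, and the standard error of a log2 fold change is its size over the square root of F. The conventional minus germ-free difference came from the same fit, and the conventional minus earlier experiment difference from 16 libraries with genes matched by symbol. Rows of the earlier table were named by transcript, and where several shared a symbol the row with the most counts was kept. A single transcript row can therefore stand against the count of a whole gene. il22 was tested by exact permutation. Alternatives were DESeq2 1.42.0, other scalings and filters, limma 3.58.1 on log2(TPM + 1) and log2(TPM + 0.1) with at least 1 TPM in 4 libraries or no filter, covariates for other organs, a test against 1.5-fold, the replicate block, the 2 groups alone and single libraries left out. The fits without 3 libraries and of the 2 groups alone with the block were chosen after seeing the data. The fit was tested on simulated data with changes of 1.5-fold, 2-fold and 4-fold. For il22koCV against WTCV it called 47.0%, 64.2% and 87.9% of the 66, 67 and 66 changed genes in that order. These genes were among 11175 tested. In the real libraries 36.2% of tested genes were called, and whether these rates hold at such a share was not tested. For the conventional minus germ-free difference it called 22.7%, 43.3% and 83.3%. A difference not called there can therefore have been missed.

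Symbols were looked up in the RefSeq table of assembly GRCz12tu: 14311 were current, 910 were replaced by their current form and 198 were kept as given. Genes were named by rule: il22, then the 15 largest rises and 15 largest falls among called genes with no overlap between groups and at least 5 CPM in the higher group, leaving out clone names, then up to 6 members of smallest p per list and, for each difference, up to 5 of each sign, with further list members named beside their counts. The plxnb2a genes and the genes named with chromosome 22 were chosen after their values were seen. The 43 lists, and this comparison, were chosen with earlier results of these data known. Entries that resolved to another gene or were broadly expressed were removed from the lists after a look at the levels (ace, sell, cd3eap, cx43.4 and tapbpl, and cpa5 and eno3 among those taken from 1 cell-type list each). Some genes are not reported here.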

Additional observations from a re-analysis of the deposited data

Results flagged for a closer look

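Among the values of 4 libraries in a group, a library was marked when its distance from the nearest of the others took more of the range of the 4 than chance gives in about 1 of 20 groups. This was asked of 340 groups of values and marked 33. WTCV 1 was the highest library for capn2l (0.862 of the range), krt4 (0.839), lamp1b (0.834), sdhc (0.830), actc1b (0.965), tnni2a.1 (0.986), actn3b (0.974), ampd1 (0.987) and the summed level of skeletal muscle genes (0.997). WTCV 4 was the highest library for ifi44f5 (0.891 of the range), muc13b (0.868), stat2 (0.951), isg15 (0.880) and cxcl20 (0.859). il22koCV 3 was the highest library for fdps (0.940 of the range), ddc (0.858), serpina1 (0.930) and the summed level of liver genes (0.869). The other marks, each with the library, its side and its distance as a share of the range, were for the summed level of lymphoid cells in WTCV 1 (lowest, 0.893), arf5 in WTCV 2 (highest, 0.850), jak1 in WTCV 3 (lowest, 0.905), ncf1 in WTCV 4 (lowest, 0.834), apodb in il22koCV 1 (highest, 0.899), itln2 in il22koCV 1 (highest, 1.000), tpmt.2 in il22koCV 1 (lowest, 0.884), krt4 in il22koCV 1 (lowest, 0.907), gcdhb in il22koCV 2 (highest, 0.901), tjp2a in il22koCV 2 (lowest, 0.964), nfil3-2 in il22koCV 2 (lowest, 0.859), jun in il22koCV 3 (lowest, 0.883), xbp1 in il22koCV 3 (lowest, 0.853), timp2a in il22koCV 4 (highest, 0.842) and fabp1b.1 in il22koCV 4 (lowest, 0.945). WTCV 1 and WTCV 4 and il22koCV 3 are the libraries left out together in the counts given above.

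The knockout effect in conventional guts differed by test from that in germ-free guts for 10 named genes. Not all of these calls held without il22koCV 2, where 7 differences were called over all genes. The differences, conventional minus germ-free in log2 fold change, were positive for cyp1a (2.44) and cyp2aa12 (0.94) and negative for atp1a1a.3 (−2.43), cyp26a1 (−2.44), hmox1a (−1.71), nfil3-2 (−0.94), cry3b (−0.81), crtac1a (−1.87), fthl28 (−3.31) and cyp8b1.1 (−1.87). Against the earlier experiment the effect differed for 38 named genes. The difference, conventional minus earlier experiment, was positive for ifi44f5 (2.94), sting1 (3.01), wbp2 (1.5), tpmt.2 (0.73), jak1 (0.61), stat3 (1.76), socs3b (2.30), muc13b (1.199), cldn15la (1.86), tjp2a (0.58), ncf4 (0.54), ikbke (1.66), pygmb (0.83), cyp1a (1.69), jun (1.46), sephs1 (1.11), psmb5 (1.51) and clca1 (3.66). It was negative for uroc1 (−2.04), cela1.3 (−4.71), apodb (−2.78), plxnb2a.3 (−1.83), lgals2a (−1.28), cldn12 (−0.36), dab2 (−0.63), ctsz (−0.55), aqp10a (−2.17), apoa1a (−0.93), apoea (−0.77), isg15 (−3.46), gys2 (−1.04), cyp2p6 (−0.73), slco1d1 (−1.19), hmox2a (−0.55), hlfa (−0.54), crtac1a (−0.65), cyp8b1.1 (−1.49) and ctss2.1 (−1.597). The 2 experiments were counted in separate tables, so these are differences between effects within each table, and the labels do not give the housing of the earlier one. Rows of the earlier table were named by transcript and may hold only part of a gene. In the earlier experiment dab2 averaged 5.3 CPM in knockout and 2.07 CPM in wild type guts, and tjp2a 3.46 and 3.56 CPM. These levels are far under the conventional ones given above, so the differences for dab2 and tjp2a are uncertain.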

How the results depend on the processing

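Of 157 genes named, 137 were called in il22koCV against WTCV guts, and 130 of these kept their direction and call under every alternative that tested them except the test against a 1.5-fold change; 89 kept it there too. The cause of these moves was not tested, except that a test against 1.5-fold and a filter at a mean of 5 CPM remove small changes and low genes by construction. No called gene named here changed direction under any alternative. The count of 4070 changed genes was 2468 with only the 2 groups fitted and the replicate block, of which 1153 were lower, and 724 (369 higher and 355 lower) in the test against 1.5-fold. The 966 genes past 2-fold became 424 and 423 on log2(TPM + 1) without and with a filter, where the pseudocount shrinks the change of low genes, 365 at a mean of at least 5 CPM and 641 in the test against 1.5-fold. With single libraries left out, in turn, the count of changed genes ranged from 3415 to 4683, with 1616 to 2502 higher, 1750 to 2181 lower and 904 to 1040 past 2-fold. The conventional minus germ-free count of 50 (13 higher and 37 lower) was 372 with DESeq2 (133 and 239) and 135 at a mean of at least 5 CPM (39 and 96). With single libraries left out it ranged from 7 to 989, its positive differences from 2 to 516 and its negative ones from 5 to 473. The conventional minus earlier experiment count of 1096 (560 higher and 536 lower) ranged from 798 to 1900 in the same way, from 424 to 1000 higher and from 372 to 900 lower, and DESeq2 gave 863 lower. The il22 difference kept its direction and stayed outside the threshold throughout. Of the 86 list counts, higher and lower, 77 moved by more than 1.5 times in the test against 1.5-fold, 30 with only the 2 groups fitted and the replicate block, 29 without WTCV 1, WTCV 4 and il22koCV 3, 26 with liver and pancreas covariates, 24 on log2(TPM + 1), 23 at a mean of at least 5 CPM, 12 to 22 with single libraries left out, 19 with only the 2 groups fitted, 15 with a muscle covariate, 7 with DESeq2, 5 with the replicate block, 4 without the filter on low counts and 0 with RLE scaling.

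Replicate numbers appear in both groups, but the libraries with the same number did not deviate together, with correlations of 0.045, −0.074, 0.023 and −0.223 for numbers 1 to 4. The labels do not say whether libraries of the same number shared an origin, and 4 libraries per group cannot settle it. With only the 2 groups fitted the count of changed genes was 3338, and 2468 with the replicate block added. With the replicate block over all 20 libraries the count of changed genes was 4006, and the conventional minus germ-free count 56. il22 had 1 to 18 counts per library, and its WTCV libraries alone spanned that range.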

Other observations

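Of 24 tested genes of antigen presentation 2 rose and 2 fell in il22koCV guts (16.7% called, median log2 fold change 0.04). There were 1 rise without WTCV 1, 2 or 3 or il22koCV 1, 2 or 3 or in the covariate fit and 4 rises without WTCV 4. b2ml, a beta-2-microglobulin gene of the class I complex, had 608, 611, 590.1 and 569 CPM in il22koCV and 402, 431, 432 and 469.5 CPM in WTCV (log2 fold change 0.46 ± 0.07, adjusted p = 5.2e-05), with no overlap. ctss2.1, a cathepsin S gene, had 3.17, 3.96, 2.52 and 2.78 CPM in il22koCV and 5.16, 17.7, 6.95 and 14.7 CPM in WTCV (adjusted p = 0.00066).

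Of 27 amino acid and peptide transporter genes 5 rose and 6 fell (40.7% called; 3 rises without il22koCV 2). Beside the brush border carriers given above, slc1a1, a glutamate carrier gene, had 239.6, 194, 202 and 273 CPM in il22koCV and 366, 340.0, 423 and 494 CPM in WTCV, and slc7a2, a cationic amino acid carrier gene, 5.79, 7.08, 5.85 and 3.95 CPM in il22koCV and 3.25, 1.61, 2.12 and 2.45 CPM in WTCV (adjusted p = 8.6e-05 and 0.00077). Neither gene's groups overlapped. Of 28 glucocorticoid response genes 1 rose and 4 fell (17.9% called; 2 rises without WTCV 1 or without the 3 libraries and 3 rises without WTCV 4). pdk2b, a pyruvate dehydrogenase kinase gene, fell by 0.96 ± 0.15 (adjusted p = 6.6e-05).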
